A study of Mus musculus with 6 samples.

Results

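The 10 genes described here encode the MHC class I pathway of the mouse, from the molecules that show peptides at the cell surface to the machinery that supplies those peptides. They were chosen by symbol, as the rows of the deposited gene table named *H2-K1*, *H2-D1*, *B2m*, *Tap1*, *Tap2*, *Tapbp*, *Psmb8*, *Psmb9*, *Psmb10* and *Nlrc5*, and they are 10 of 24532 genes in that table. The choice was made with their difference between the siRNA groups already known, so this difference is given as a description. Calls of these genes by the fits are no test of it. RNA was sequenced from articular chondrocytes, the cells of joint cartilage, in primary culture from 5-day-old mice of the ICR strain, an outbred stock. The 3 *Sephs1* siRNA libraries came from cells transfected with 50 nM siRNA against *Sephs1*, a gene of selenium metabolism, and the 3 control siRNA libraries from cells given 50 nM negative control siRNA. All cells were transfected 2 times, for 12 h with 48 h in fresh medium afterwards, under 3% oxygen. The study calls the replicates biological, and the labels number them without naming the animals or cultures. The spread between libraries is thus all that the errors measure.

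MHC class I molecules are carried by nearly all nucleated cells and display short peptides from proteins made inside the cell to CD8+ T cells and natural killer cells. The proteasome cuts proteins into peptides, the TAP transporter moves these into the endoplasmic reticulum, and tapasin holds the empty class I molecule at the transporter until a peptide is bound. Interferons raise the genes of this pathway together in many cell types, and NLRC5 drives transcription of class I genes from their proximal promoters.

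*Sephs1* mRNA was at 36.1, 24.9 and 21.6 CPM in the *Sephs1* siRNA libraries, against 50.7, 44.7 and 44.7 CPM in the control siRNA libraries, where CPM stands for read counts scaled to a common library size by TMM. Its log2 fold change was -0.76 ± 0.19 (SE, edgeR adjusted p = 0.392, or 0.04 in the blocked fit, which adds the replicate number as a term), and all 3 *Sephs1* siRNA libraries were below all 3 controls. The libraries held 58214060 to 80887889 reads, and 14223 genes had a read in every library. The chondrocyte label was borne out by its markers: 18 of 18 listed ones in the table had reads, and their sum ran from 96160 to 120300 CPM in *Sephs1* siRNA libraries and from 103600 to 137100 CPM in controls. The edgeR test at an unadjusted p under 0.05 called 0 of these 18 higher and 1, *Lect1*, lower, where 4.98% of all genes tested were higher and 3.63% lower. The blocked fit called 2 higher and 9 lower at that threshold, where it called 13.1% and 11.2% of all genes, and *Lect1* and *Col9a1* were lower at an adjusted p (0.0392 and 0.0446). Of 22 leukocyte markers, 11 had 0 reads in all 6 libraries, among them *Itgam*, *Itgax*, *Tyrobp* and *Cd3e*, and *Ptprc*, which encodes the pan-leukocyte protein CD45, had at most 4 reads in a library. The 6 with a read in every library were *Laptm5* (353 to 1025 reads), *Cd14* (206 to 314), *Lyz2* (112 to 289), *Cd68* (98 to 190), *Mrc1* (75 to 200) and *Csf1r* (38 to 92). None of these 6 passed an unadjusted p of 0.05 without the block. In the blocked edgeR fit *Mrc1* was higher and *Laptm5* lower at that threshold (adjusted p = 0.156 and 0.148). The leukocyte markers summed to between 16.8 and 23.7 CPM with *Sephs1* siRNA and to between 18.1 and 25.0 CPM with control siRNA, so these ranges overlapped. Of 5 osteoblast markers tested, *Alpl* and *Phex* were lower at an unadjusted p, *Alpl* with 12.9, 9.77 and 6.55 CPM with *Sephs1* siRNA, against 26.6, 27.2 and 16.6 CPM with control siRNA (edgeR adjusted p = 0.392, 0.0183 in the blocked fit). The others tested did not share a direction. *Dmp1* had a log2 fold change of 1.04, from 11 to 48 reads in a library. *Ibsp* had 0.06, or -0.14 with the block, and *Sp7* had -0.44. In the blocked edgeR fit *Dmp1* was higher, *Alpl* and *Sp7* were lower and *Phex* was not called, at the unadjusted threshold of 0.05. The 7 listed osteoblast markers summed to between 12.5 and 29.99 CPM with *Sephs1* siRNA and to between 27.0 and 43.5 CPM with control siRNA. Of 9 fibroblast and synovial markers, 0 passed an unadjusted p without the block, while the blocked fit called *Dcn* higher and *Col1a2* lower at an adjusted p (0.0392 and 0.0251), and their sum ran from 20730 to 24260 CPM with *Sephs1* siRNA and from 21740 to 27700 CPM with control siRNA. The part of the cell types in the results was not tested. In bulk RNA, fewer cells of a type and less RNA per cell cannot be told apart.

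Of the 10 genes, 7 lie in or near the H2 region of chromosome 17 in GRCm38.p6. *Psmb9*, *Tap1*, *Psmb8* and *Tap2* stand in that order within 34.3 kb. *Psmb9* and *Tap1* are transcribed away from each other from start sites 226 bp apart. *B2m* lies on chromosome 2, and *Psmb10* and *Nlrc5* lie on chromosome 8. RefSeq promoter windows were at hand for 8 of the 10 genes and not for *Tap2* and *Nlrc5*. The 250 bases before the start site are shown for 5 of them, read 5′ to 3′ on the strand of the gene: both heavy chains and the light chain, which form the class I molecule, *Tap1*, whose window covers the stretch shared with *Psmb9*, and *Psmb10*, the gene whose level differed least between the groups. Capitals mark matches, on either strand, to 5 short patterns: GAANNGAAA for an IRF element, a longer IRF form of GAAA, 2 free bases and GAAA, which was added after the windows had been seen, TTCNNNGAA for a STAT element, GGGNNTTCC for an NF-kB element and CCAAT for the NF-Y element. The windows lie at chr17:34000334-34000583 on the minus strand for *H2-K1*, chr17:35262844-35263093 on the plus strand for *H2-D1*, chr2:122147437-122147686 on the plus strand for *B2m*, chr17:34187306-34187555 on the plus strand for *Tap1* and chr8:105938393-105938642 on the minus strand for *Psmb10*, all in GRCm38.p6 from RefSeq.
H2-K1: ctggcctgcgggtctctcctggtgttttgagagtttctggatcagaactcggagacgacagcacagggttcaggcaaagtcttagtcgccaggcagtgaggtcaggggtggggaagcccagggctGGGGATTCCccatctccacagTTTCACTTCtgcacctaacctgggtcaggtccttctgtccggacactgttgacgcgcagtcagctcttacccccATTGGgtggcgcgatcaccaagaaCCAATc
H2-D1: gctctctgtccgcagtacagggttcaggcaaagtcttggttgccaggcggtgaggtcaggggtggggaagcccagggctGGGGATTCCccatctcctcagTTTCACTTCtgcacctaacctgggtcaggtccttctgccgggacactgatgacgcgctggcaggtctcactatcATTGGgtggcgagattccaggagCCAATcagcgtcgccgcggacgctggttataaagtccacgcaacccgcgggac
B2m: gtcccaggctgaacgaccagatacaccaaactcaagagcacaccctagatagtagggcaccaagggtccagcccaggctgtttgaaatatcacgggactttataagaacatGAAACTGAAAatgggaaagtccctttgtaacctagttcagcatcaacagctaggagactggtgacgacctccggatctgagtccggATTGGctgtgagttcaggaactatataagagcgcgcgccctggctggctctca
Tap1: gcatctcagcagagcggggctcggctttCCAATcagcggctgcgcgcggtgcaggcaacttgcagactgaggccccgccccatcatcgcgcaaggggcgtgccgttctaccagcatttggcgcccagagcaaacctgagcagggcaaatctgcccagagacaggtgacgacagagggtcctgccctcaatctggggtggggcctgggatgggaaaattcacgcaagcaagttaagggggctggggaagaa
Psmb10: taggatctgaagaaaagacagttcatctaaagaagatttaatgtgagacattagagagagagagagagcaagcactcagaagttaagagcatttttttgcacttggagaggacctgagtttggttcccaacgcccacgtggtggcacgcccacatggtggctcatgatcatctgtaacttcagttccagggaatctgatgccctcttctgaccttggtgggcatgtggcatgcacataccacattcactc

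The promoters of *H2-K1* and *H2-D1* hold the same 3 kinds of match in the same order, an NF-kB element, then an IRF element, then NF-Y elements. *H2-K1* has 2 RefSeq windows with different start sites, of which 1 is shown. The NF-kB match begins 125 bases before the start site in the *H2-K1* window shown and 171 bases before it in *H2-D1*. In the other *H2-K1* window it begins 111 bases before the start, and that window holds 1 NF-Y match. The NF-kB match lies inside the longest run of identical bases of the *H2-K1* and *H2-D1* windows shown, 47 in length. The IRF pattern was in the windows of *H2-K1* and *H2-D1* alone among the 8 genes, and in 6.31% of 32851 RefSeq promoter windows. The NF-kB pattern was in the windows of the same pair and in 4.98% of all windows. The longer IRF form was found in *B2m*, 139 bases before the start, and in 2.98% of all windows. A STAT match was found in *Psmb8* alone among the 8, with 7.02% of all windows holding one. The NF-Y pattern was in 6 of the 8 genes, *B2m*, *H2-D1*, *H2-K1*, *Psmb9*, *Tap1* and *Tapbp*, and in 33.9% of all windows, some of which come from the same gene. The match of *Psmb9*, 8 bases before its start, and that of *Tap1*, 222 bases before its start, are the same bases of the shared stretch. *Psmb10* held none of the 5 patterns, which says only that these letters are not in its window.

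For the heavy chains and the light chain, all 3 *Sephs1* siRNA libraries were above all 3 control siRNA libraries. *H2-K1* (gene ID 14972, chr17:33996012-34000619), a classical heavy chain gene, had 112, 151 and 175 CPM with *Sephs1* siRNA, against 77.9, 67.4 and 64.7 CPM with control siRNA. The lowest *Sephs1* siRNA library, replicate 1, was still above the highest control. The log2 fold change of *H2-K1* was 1.06 ± 0.17 (SE), or 2.09-fold. *H2-D1* (gene ID 14964, chr17:35263094-35267497), the other classical heavy chain gene among the 10, had 139, 215 and 348 CPM with *Sephs1* siRNA, against 96.7, 94.9 and 111 CPM with control siRNA. The groups did not overlap, and replicate 3 of the *Sephs1* siRNA group stood far above its fellows. The log2 fold change of *H2-D1* was 1.22 ± 0.31 (SE), or 2.32-fold, and it was 0.81 without *Sephs1* siRNA replicate 3. *B2m* (gene ID 12010, chr2:122147687-122153082) encodes beta-2-microglobulin, the light chain that every class I heavy chain needs to reach the surface. It had 468, 627 and 706 CPM with *Sephs1* siRNA, against 370, 355 and 373 CPM with control siRNA. The control libraries lay within a narrow band and the *Sephs1* siRNA libraries were all above it. The log2 fold change of *B2m* was 0.71 ± 0.15 (SE), or 1.64-fold.

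Since reads of the longer transcripts count more, genes were set against each other only in FPKM, the authors' values relative to transcript length and sequencing depth. *B2m* FPKM over the summed FPKM of *H2-K1* and *H2-D1* was 3.69, 3.39 and 2.68 in the *Sephs1* siRNA libraries, against 4.19, 4.33 and 4.2 in the control siRNA libraries. Light chain mRNA was thus in excess of the *H2-K1* and *H2-D1* sum in all 6 libraries, by less in the *Sephs1* siRNA group. The groups did not overlap in this ratio. Other heavy chain genes were left out of the sum, so the ratio is to a part of the heavy chain mRNA. *H2-D1* over *H2-K1* was 1.18, 1.35 and 1.89 with *Sephs1* siRNA, against 1.18, 1.34 and 1.63 with control siRNA. In that ratio the groups overlapped, and libraries with the same replicate number had similar values.

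Transport and loading genes were also higher in every *Sephs1* siRNA library than in every control. *Tap1* (gene ID 21354, chr17:34187556-34197225), a subunit of the peptide transporter, had 5.86, 9.12 and 12.0 CPM with *Sephs1* siRNA, against 4.91, 5.09 and 5.16 CPM with control siRNA. Replicate 1 of the *Sephs1* siRNA group stood just above the controls, and the others well above them. The log2 fold change of *Tap1* was 0.83 ± 0.25 (SE), or 1.78-fold. *Tap2* (gene ID 21355, chr17:34204479-34216321), its partner in the transporter, had 8.44, 11.7 and 16.6 CPM with *Sephs1* siRNA, against 6.70, 6.63 and 7.84 CPM with control siRNA. It followed the same order of libraries as *Tap1*, with replicate 1 lowest and replicate 3 highest in the *Sephs1* siRNA group. The log2 fold change of *Tap2* was 0.80 ± 0.24 (SE), or 0.51 without *Sephs1* siRNA replicate 3. The FPKM ratio of *Tap2* to *Tap1* was 1.70, 1.52 and 1.64 with *Sephs1* siRNA, against 1.62, 1.54 and 1.80 with control siRNA, so the transporter subunits kept overlapping ratios. *Tapbp* (gene ID 21356, chr17:33919478-33929290), which encodes tapasin, had 110, 117 and 108 CPM with *Sephs1* siRNA, against 82.1, 75.8 and 67.4 CPM with control siRNA. Unlike the genes so far, its 3 *Sephs1* siRNA libraries were close to each other. The log2 fold change of *Tapbp* was 0.57 ± 0.09 (SE), or 1.49-fold, with the smallest error among the 9 genes fitted.

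The immunoproteasome is a form of the proteasome in which 3 catalytic subunits are exchanged for inducible ones, encoded by *Psmb8*, *Psmb9* and *Psmb10*. *Psmb8* (gene ID 16913, chr17:34198195-34201454), which takes the place of *Psmb5*, had 0.550, 1.41 and 3.21 CPM with *Sephs1* siRNA, against 0.286, 0.434 and 0.785 CPM with control siRNA. The groups overlapped, since *Sephs1* siRNA replicate 1 was below control replicate 3, although each library was above the control of the same number. Its log2 fold change of 1.76 ± 0.67 (SE) rests on 16 to 210 reads in a library, and it was 0.95 without *Sephs1* siRNA replicate 3. *Psmb9* (gene ID 16912, chr17:34182030-34187330), which takes the place of *Psmb6*, had 21, 65 and 39 reads with *Sephs1* siRNA, against 0, 22 and 14 reads with control siRNA. These are 0.312, 0.908 and 0.596 CPM with *Sephs1* siRNA, against 0, 0.281 and 0.186 CPM with control siRNA, so the groups did not overlap on this scale. The 0 in control replicate 1 kept *Psmb9* out of the fit over 14223 genes, and without a filter on low counts its log2 fold change was 1.90 ± 0.92 (SE). *Psmb10* (gene ID 19171, chr8:105935728-105938392), which takes the place of *Psmb7*, had 6.17, 7.22 and 7.27 CPM with *Sephs1* siRNA, against 8.25, 6.75 and 7.25 CPM with control siRNA. Its groups overlapped, and its log2 fold change was -0.11 ± 0.13 (SE). That made it the single gene of the 9 fitted with a value below 0.

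Set against the constitutive subunits in FPKM, the inducible ones were scarce in all libraries. *Psmb8* stood at 1.07%, 3.18% and 6.88% of *Psmb5* with *Sephs1* siRNA, against 0.489%, 0.901% and 1.56% with control siRNA. *Psmb9* stood at 0.455%, 1.5% and 0.953% of *Psmb6* with *Sephs1* siRNA, against 0%, 0.420% and 0.245% with control siRNA. *Psmb10* stood at 6.41%, 7.90% and 7.64% of *Psmb7* with *Sephs1* siRNA, against 8.0%, 7.27% and 7.29% with control siRNA. The first ratio overlapped between the groups through *Sephs1* siRNA replicate 1, the second did not overlap, and the third showed no order of the groups. The denominators themselves did not pass the test without the block, with log2 fold changes of -0.14 ± 0.10 (SE, adjusted p = 0.757 from edgeR) for *Psmb5*, -0.16 ± 0.08 (SE, adjusted p = 0.629) for *Psmb6* and -0.06 ± 0.07 (SE, adjusted p = 0.815) for *Psmb7*. In the blocked fit *Psmb5* and *Psmb6* were lower at an unadjusted p of 0.0327 and 0.0163 and had an adjusted p of 0.170 and 0.124.

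**Figure D1:**
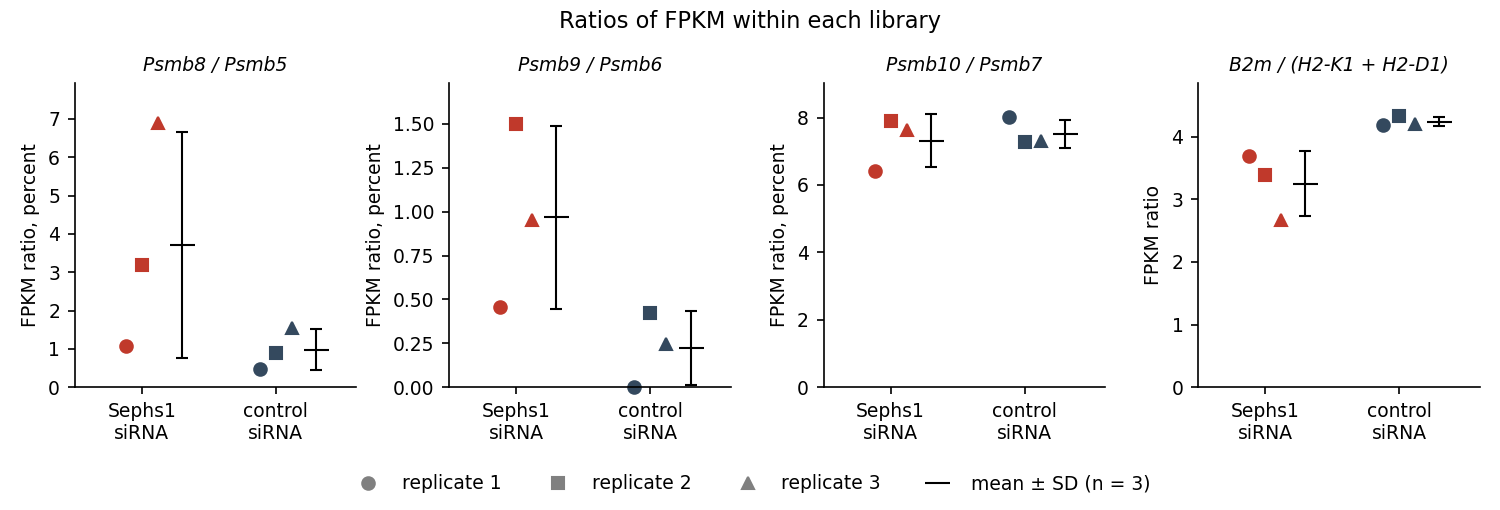
Ratios of FPKM within each library, with *Sephs1* siRNA at the left and control siRNA at the right of each panel. Symbols give the replicate number and bars the mean and SD (n = 3). Vertical axes give percent for the 3 proteasome ratios and a plain ratio for *B2m* over the sum of *H2-K1* and *H2-D1*, and each starts at 0. *Psmb8* over *Psmb5* reached 6.88% in *Sephs1* siRNA replicate 3, while *Psmb10* over *Psmb7* stayed between 6.41% and 8.0% in all 6 libraries.

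*Nlrc5* (gene ID 434341, chr8:94434335-94527272), the transactivator of class I genes, had 1.96, 3.60 and 3.94 CPM with *Sephs1* siRNA, against 1.61, 1.93 and 1.98 CPM with control siRNA. Replicates 2 and 3 of the *Sephs1* siRNA group were above all controls, while replicate 1 lay within the control range, so the groups overlapped. Its log2 fold change was 0.78 ± 0.28 (SE), or 1.72-fold, from 90 to 258 reads in a library.

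Over the 9 genes fitted, the median log2 fold change was 0.80, where the median over all 14223 genes was 0.009. The genes were chosen on this contrast, so the counts of calls that follow are a description and no support for a difference. Of these 9, 8 were higher and 0 lower at an unadjusted p under 0.05 from edgeR, where 4.98% of all genes tested were higher. At an adjusted p under 0.05, edgeR called none of the 9, where 0.00703% of all genes were higher at that level. With the replicate number as a block, 8 were higher at an unadjusted p (13.1% of all genes), and 1, *Tapbp*, was higher at an adjusted p (0.83% of all genes). At an adjusted p the blocked fit without pair 1 called 2 of the 10, *H2-K1* and *B2m*, and 16 of 14522 genes in either direction. Without pair 2 it called 0 of them and 81 of 14351 genes, and without pair 3 it called 4 and 1187 of 14411 genes. With no filter on low counts it called 0 of them and 73 of 17250 genes. The call of *Tapbp* thus depended on the libraries and genes that entered. DESeq2 called 4 higher at an adjusted p, *H2-K1*, *H2-D1*, *B2m* and *Tapbp* (1.03% of all genes). Without overlap between the groups, 6 of the 9 were higher, where 7.8% of all genes were. Since the genes were chosen on this contrast, nothing is read from these counts.

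**Figure D2:**
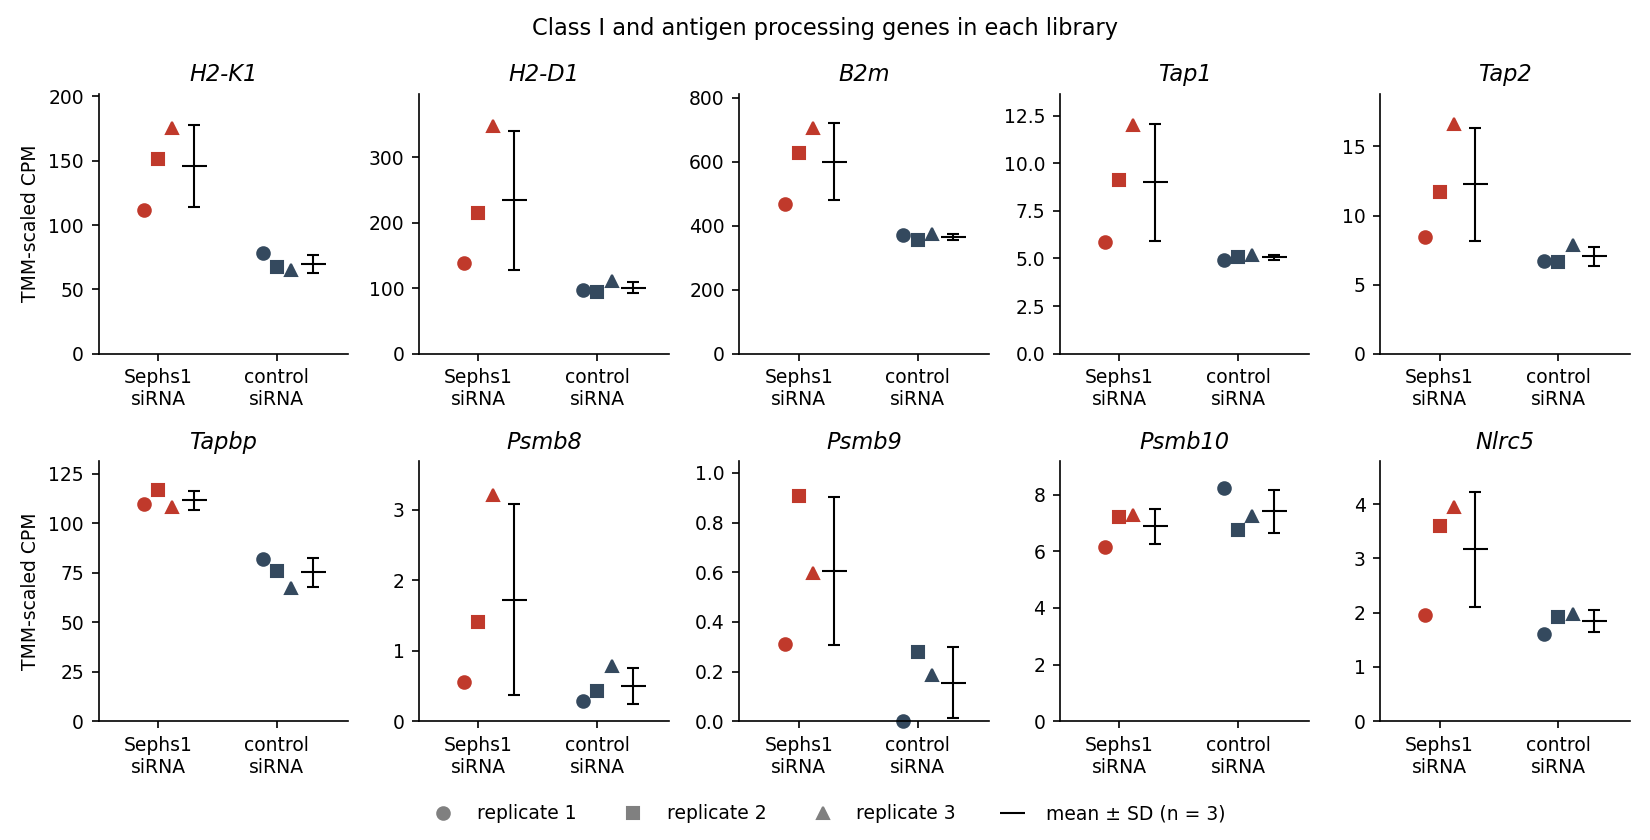
TMM-scaled CPM of the 10 genes in each of the 6 libraries, with *Sephs1* siRNA at the left and control siRNA at the right of each panel. Every vertical axis is linear from 0 with a scale of its own, symbols give the replicate number, and bars give the mean and SD (n = 3). The groups do not overlap in *H2-K1*, *H2-D1*, *B2m*, *Tap1*, *Tap2*, *Tapbp* and *Psmb9*, and they overlap in *Psmb8*, *Psmb10* and *Nlrc5*.

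The 10 genes spanned more than 3 orders of magnitude in level. In the control siRNA libraries, *B2m* averaged 411 ± 18.2 FPKM (SD, n = 3), *H2-D1* 56.1 ± 6.40 FPKM, *H2-K1* 40.9 ± 3.28 FPKM and *Tapbp* 26.3 ± 1.95 FPKM. The molecule itself and tapasin thus came first, and *B2m* was 7.33 times as high as the next gene. *Psmb10* averaged 5.62 ± 0.54 FPKM, *Tap2* 2.73 ± 0.34 FPKM and *Tap1* 1.65 ± 0.081 FPKM in controls. The lowest levels were those of *Psmb8* with 0.395 ± 0.21 FPKM, *Nlrc5* with 0.255 ± 0.034 FPKM and *Psmb9* with 0.181 ± 0.17 FPKM. Each gene was above the next in all control libraries, except that the control ranges of *Psmb8* and *Nlrc5* overlapped, as did those of *Nlrc5* and *Psmb9*. *B2m* stood at the 99.0 percentile of the genes tested by control FPKM, and *Tap1* at the 28.9 percentile, so the transporter was among the lower genes. In the *Sephs1* siRNA libraries, *B2m* ran from 540 to 846 FPKM, *H2-D1* from 79.3 to 206 FPKM and *H2-K1* from 67.2 to 109.5 FPKM.

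**Figure D3:**
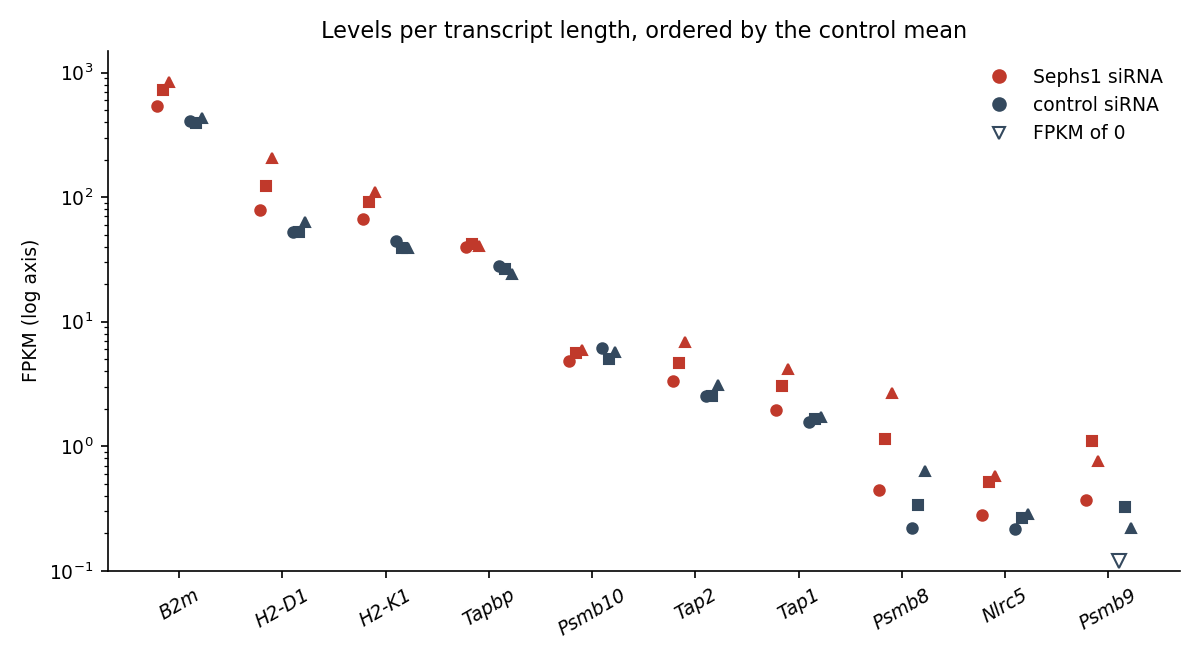
FPKM of the 10 genes in each library on a log axis, ordered by the mean of the control siRNA libraries, with *Sephs1* siRNA left of control siRNA for each gene. Symbols give the replicate number as in the panels by library, and the open triangle stands for the FPKM of 0 of *Psmb9* in control replicate 1. *B2m* averaged 411 FPKM in controls and *Psmb9* 0.181 FPKM.

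The size of the difference was not the same in the 3 pairs of libraries that share a replicate number. Its median over the 9 genes was 0.34 in pair 1, 0.84 in pair 2 and 1.08 in pair 3, on the log2 scale of *Sephs1* siRNA over control siRNA. *H2-K1* had 0.52, 1.17 and 1.44 in pairs 1, 2 and 3, and *Tap1* had 0.26, 0.84 and 1.22. *Sephs1* itself had -0.49, -0.84 and -1.05 in the same pairs. Over 3 pairs this is a description, and no relation between *Sephs1* and the other genes was tested. *Tapbp* differed least between the pairs, with 0.42, 0.63 and 0.68. *Psmb10* had -0.42, 0.10 and 0.003, so the 3 pairs did not share a sign.

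**Figure D4:**
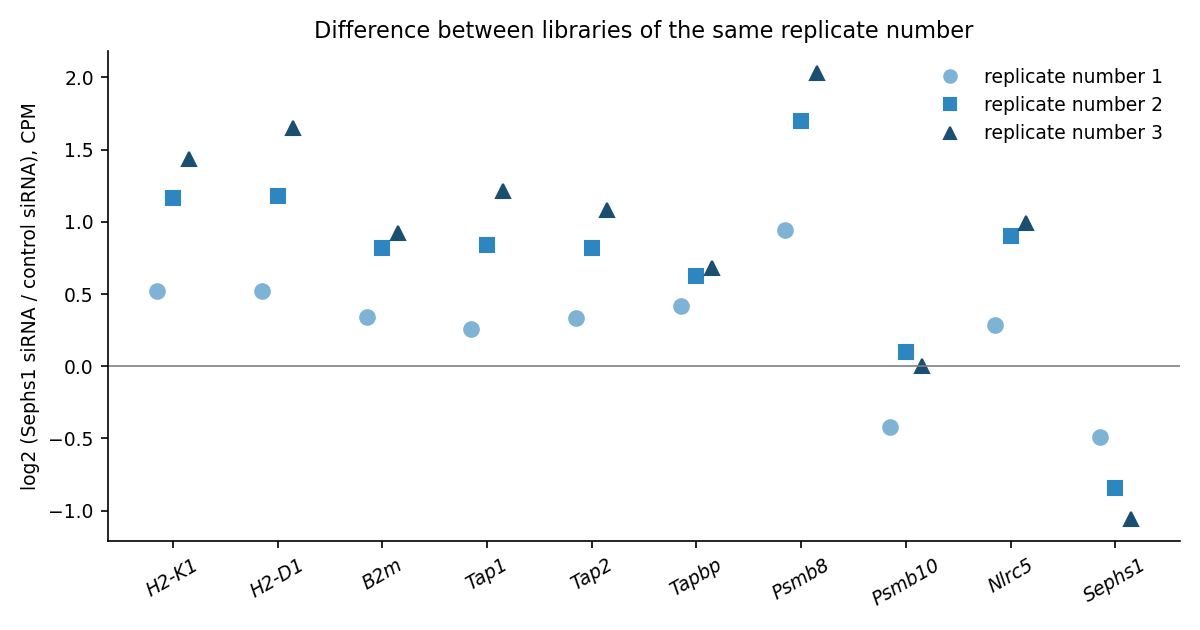
Log2 ratio of CPM, *Sephs1* siRNA over control siRNA, between libraries of the same replicate number, for the 9 genes with a read in every library and for *Sephs1*. Each point is 1 pair and the line marks no difference. In 8 of the 9 genes all 3 points lie above 0 and pair 1 is the lowest, as with *H2-K1* at 0.52, 1.17 and 1.44, while *Sephs1* lies below 0 in all pairs.

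To describe how the genes varied within a group, each group's mean was subtracted from the log2 CPM. The remainders of the 6 libraries were then correlated. The median Pearson r over 36 pairs of genes was 0.84, and 31 pairs were positive, where the median over pairs of all genes was -0.001. These r values are over 6 libraries that share depth and culture, with 4 degrees of freedom left after the group means, and carry no p. *H2-D1* and *Tap2* had an r of 0.996, *B2m* and *Tap1* one of 0.98 and *Tap1* and *Tap2* one of 0.96. *Tapbp* stood apart, with an r of -0.50 with *Psmb8*, -0.29 with *Tap2* and 0.003 with *B2m*. *Psmb10*, whose groups overlapped, still had an r of 0.84 with *H2-K1* and of 0.71 with *B2m* in these remainders. The remainders were wider in the *Sephs1* siRNA group for *H2-D1*, at -0.65, -0.02 and 0.67 there, against -0.06, -0.08 and 0.14 in the control siRNA libraries. They were also wider there for the other genes fitted, except *Tapbp* and *Psmb10*. *Sephs1* itself differed within its siRNA group, at 36.1, 24.9 and 21.6 CPM. These r values are therefore not free of the contrast on which the genes were chosen.

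The other class I heavy chain genes, mostly of the nonclassical Q, T and M families, were not among the 10. Their list was drawn up with earlier results of these data known, and they share sequence with *H2-K1* and *H2-D1*, so they are no independent support. Of 31 listed, 30 were in the table, 11 had no read in any library, and 16 had a read in each library. At an unadjusted p under 0.05 from edgeR, 10 of these 16 were higher in the *Sephs1* siRNA libraries and 0 were lower, where 4.98% of all genes were higher. At an adjusted p under 0.05 from edgeR none was called, while the blocked fit called *H2-Q1* and *H2-T9*. Neither was called by the blocked fit without pair 1, without pair 2 or with no filter on low counts, and both were without pair 3. *H2-Q4* was called by the blocked fit without pair 1 and without pair 3, and *H2-T23* without pair 3. DESeq2 called *H2-K2*, *H2-Q1*, *H2-Q4*, *H2-T9* and *H2-T23* higher at an adjusted p, where it called 1.03% of all genes higher. The median log2 fold change of the 16 was 0.93. *H2-Q4*, a gene of the Q family, had 20.3, 31.9 and 46.3 CPM with *Sephs1* siRNA, against 13.2, 12.4 and 15 CPM with control siRNA. The groups did not overlap, and the log2 fold change of *H2-Q4* was 1.28 ± 0.28 (SE, adjusted p = 0.392 from edgeR, 0.0535 in the blocked fit). *H2-T23* encodes Qa-1, the class I molecule seen by the natural killer receptor CD94/NKG2A. It had 21.3, 29.5 and 42.6 CPM with *Sephs1* siRNA, against 15.3, 13.7 and 13.7 CPM with control siRNA. All *Sephs1* siRNA libraries were above all controls, and the log2 fold change of *H2-T23* was 1.13 ± 0.24 (SE, adjusted p = 0.375 from edgeR, 0.0728 in the blocked fit). *H2-T9* had 27.6, 28.0 and 31.0 CPM with *Sephs1* siRNA, against 20.7, 18.9 and 20.1 CPM with control siRNA, with a log2 fold change of 0.54 ± 0.08 (SE, adjusted p = 0.332 from edgeR, 0.0373 in the blocked fit). *H2-Q1* had a log2 fold change of 1.28 ± 0.32 (SE, adjusted p = 0.392 from edgeR, 0.0398 in the blocked fit), from 4.01, 6.26 and 9.44 CPM with *Sephs1* siRNA, against 2.17, 2.78 and 3.14 CPM with control siRNA. The other 6 called genes had log2 fold changes of 1.06 for *H2-L*, 1.05 for *H2-K2*, 1.66 for *H2-Q6*, 0.89 for *H2-Q10*, 0.83 for *H2-T10* and 0.56 for *H2-M3*. That of *H2-Q6* was 0.78 without *Sephs1* siRNA replicate 3, and its groups overlapped, with 1.1, 2.53 and 6.41 CPM with *Sephs1* siRNA, against 1.04, 0.497 and 1.64 CPM with control siRNA. The 6 genes without a call were *H2-Q2* with 2.16, *H2-Bl* with 0.98, *H2-Q5* with 0.86, *H2-Q7* with 0.59, *H2-T22* with 0.10 and *H2-Q8* with -1.11. *H2-Q7* had -0.32 without *Sephs1* siRNA replicate 3, and *H2-Q8* had 0.44 without control replicate 1, so 1 library set the sign of each. *H2-Q2* had 2.76, 4.43 and 9.97 CPM with *Sephs1* siRNA, against 1.95, 1.84 and 0.0799 CPM with control siRNA, and its value was 1.49 without *Sephs1* siRNA replicate 3 and 0.90 in the blocked fit without pair 3. *H2-Q5* had 0.55 without control replicate 2.

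Class I genes resemble each other, and reads could be assigned to the wrong one. Of the 50-base stretches of the reference transcripts, 8.79% of *H2-K1* and 14.3% of *H2-D1* also occur in another gene. The other genes among the 10 shared at most 2.00% of theirs, and *B2m*, *Psmb8*, *Psmb9*, *Psmb10* and *Nlrc5* shared none. Among the tested nonclassical genes in the annotation, the share ran from 0.58% for *H2-M3* to 35.8% for *H2-T22*. *H2-M3*, which presents formylated peptides, is thus nearly free of shared sequence, and it had 2.87, 3.13 and 4.12 CPM with *Sephs1* siRNA, against 2.04, 2.46 and 2.36 CPM with control siRNA (unadjusted p = 0.0244 and adjusted p = 0.504 from edgeR). *H2-L* and *H2-T9* are rows of the deposited table without an entry in the RefSeq table used here, and *H2-K2*, *H2-Q5*, *H2-T10* and *H2-Bl* are annotated as transcribed pseudogenes. The reference carries the alleles of C57BL/6J while ICR mice are outbred, and the read length is not given in the sources used here. The part of such misassignment in the values of single class I genes was not tested.

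The rest of the pathway was measured by list. At an unadjusted p under 0.05 from edgeR, 2 of 9 chaperones and peptidases of the loading step were higher and 1 was lower. Of all genes tested, 4.98% were higher and 3.63% lower at that threshold. The median log2 fold change of the list was -0.06. *Erap1*, the aminopeptidase that trims peptides in the endoplasmic reticulum, had 24.7, 29.9 and 28.8 CPM with *Sephs1* siRNA, against 20.2, 21.9 and 18 CPM with control siRNA. Its groups did not overlap, and its log2 fold change was 0.47 ± 0.11 (SE, adjusted p = 0.392 from edgeR, 0.0654 in the blocked fit). *Lnpep*, an aminopeptidase of endosomes, had a log2 fold change of 0.39 ± 0.14 (SE, adjusted p = 0.503 from edgeR), or 0.24 without control replicate 1. *Hspa5*, the general chaperone BiP, had 1416, 1401 and 1543 CPM with *Sephs1* siRNA, against 1959, 1815 and 1821 CPM with control siRNA. It was lower in all *Sephs1* siRNA libraries, with a log2 fold change of -0.36 ± 0.08 (SE, adjusted p = 0.392 from edgeR, 0.0392 in the blocked fit). The lectin chaperones of the loading complex had log2 fold changes of -0.06 ± 0.07 (SE) for *Calr* and -0.34 ± 0.22 (SE) for *Canx*, and its oxidoreductase *Pdia3* had -0.06 ± 0.07 (SE). These 3 genes did not pass the test.

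Of 9 genes for activators and assembly factors of the proteasome, 0 were higher and 0 lower at an unadjusted p under 0.05 from edgeR. With the block 2 were lower, where 11.2% of all genes were. Among them the interferon-inducible activator genes *Psme1* and *Psme2* had log2 fold changes of 0.002 ± 0.075 (SE) and 0.12 ± 0.08 (SE). Among 5 class I-like genes outside the H2 region, the same threshold without the block called *Cd1d1* higher and *Procr* and *Mr1* lower. It called 4.98% of all genes higher and 3.63% lower. *Cd1d1*, which presents lipids, had a log2 fold change of 0.57 ± 0.22 (SE, adjusted p = 0.554 from edgeR, 0.185 in the blocked fit). *Mr1*, which presents vitamin B metabolites, had one of -0.40 ± 0.15 (SE, adjusted p = 0.542, 0.0863 in the blocked fit).

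Among 15 transcription factor genes of the class I promoters, edgeR called 4 higher and 0 lower at an unadjusted p under 0.05. With the block 5 were higher and 0 lower, where 13.1% and 11.2% of all genes were. *Stat2*, a signal transducer of the type I interferon receptor, had 16.1, 23.6 and 22.1 CPM with *Sephs1* siRNA, against 13.1, 14.1 and 11.1 CPM with control siRNA. Replicate 1 was again the lowest of its group and still above all controls, and the log2 fold change of *Stat2* was 0.69 ± 0.17 (SE, adjusted p = 0.392 from edgeR, 0.0747 in the blocked fit). *Irf9*, a DNA-binding factor of interferon signaling, had a log2 fold change of 0.42 ± 0.11 (SE, adjusted p = 0.392 from edgeR), and *Irf1* had one of 0.28 ± 0.08 (SE, adjusted p = 0.452). The subunits that share the class I promoter with NLRC5 did not pass the test, with log2 fold changes of 0.10 for *Rfx5*, -0.09 for *Rfxap* and 0.03 for *Rfxank*. Over these 6 lists together, 57 genes were tested, and 17 were higher and 3 lower at an unadjusted p under 0.05 from edgeR, where 4.98% and 3.63% of all genes were. At an adjusted p under 0.05, edgeR called none of the 57, while the blocked fit called 3 higher (0.83% of all genes) and 1 lower (0.816%). With DESeq2 there were 7 higher (1.03% of all genes) and *Hspa5* alone lower. The blocked fit called 1 higher without pair 1, where it called 16 of 14522 genes in either direction. Without pair 2 it called 0, where it called 81 of 14351 genes. Without pair 3 it called 9 higher and 2 lower, where it called 1187 of 14411 genes. With no filter on low counts it called 0, where it called 73 of 17250 genes. The count of 20 fell to 13 without *Sephs1* siRNA replicate 2 and likewise to 13 without *Sephs1* siRNA replicate 3.

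**Figure D5:**
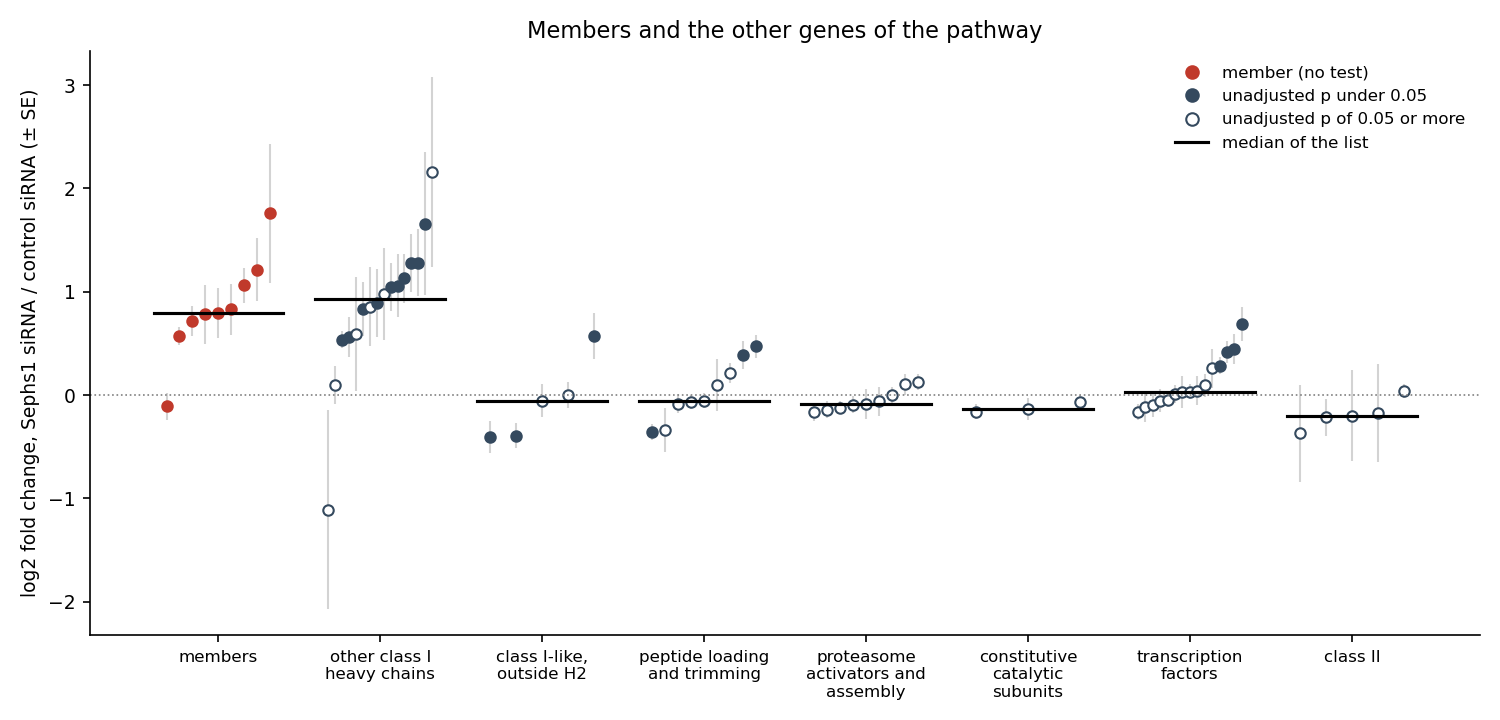
Log2 fold change of *Sephs1* siRNA over control siRNA with its standard error for each gene fitted, by list. Filled dark points passed an unadjusted p of 0.05 from edgeR and open points did not. The red points are the 9 genes fitted of the 10 chosen and are not marked by p, and black lines are list medians. The medians are 0.80 for those 9 genes, 0.93 for the other heavy chains and -0.06 for peptide loading, and the catalytic subunits of the constitutive proteasome all lie below 0 without a call in the fit without the block.

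The MHC class II genes, which professional antigen-presenting cells use for peptides taken up from outside, were measured beside them. Of 15 listed, 14 were in the table, and *Ciita*, the class II counterpart of *Nlrc5*, and *H2-Aa* had 0 reads in all 6 libraries. The 5 with a read in every library were *Ifi30* (3324 to 4728 reads), *H2-DMa* (475 to 693), *H2-DMb1* (156 to 450), *H2-DMb2* (136 to 341) and *H2-Eb1* (24 to 62). Of these 5, which were tested, 0 were higher and 0 lower at an unadjusted p under 0.05 from edgeR or with the block. Of all genes, 4.98% were higher and 3.63% lower without the block, and 13.1% and 11.2% with it. The adjusted p from edgeR was 0.775 or more for each. *Cd74*, the invariant chain that class II molecules need, had 4, 0 and 2 reads with *Sephs1* siRNA, against 4, 0 and 2 reads with control siRNA. Of 21 interferon genes, 18 had 0 reads in all 6 libraries, among them *Ifng* and the 13 listed *Ifna* genes. *Ifnz*, the only one tested, had 28, 30 and 25 reads with *Sephs1* siRNA, against 28, 24 and 19 with control siRNA. Its log2 fold change was 0.215 ± 0.316 (SE, adjusted p = 0.864 from edgeR). *Ifnb1* had 3 reads in 1 *Sephs1* siRNA library and 0 in the others, and *Ifnab* had 0, 3 and 3 reads with *Sephs1* siRNA, against 0 reads in each control. The counts of *Ifnb1* and *Ifnab* do not tell the groups apart at this depth.

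To find genes that followed the same course over the libraries, each of 12028 genes with a mean of at least 1 CPM was correlated with the mean standardized log2 CPM of the 9 genes fitted. This mean was -0.24, 0.89 and 1.41 in the *Sephs1* siRNA libraries, against -0.60, -0.84 and -0.61 in the control siRNA libraries. The 10 most alike, with Pearson r over 6 libraries, were *Enkd1* (0.994), *Hk1* (0.992), *Bst2* (0.991), *Glt28d2* (0.989), *H2-Q4* (0.989), *St6galnac6* (0.989), *Amz1* (0.986), *Lgals3bp* (0.982), *H2-T23* (0.980) and *Naa40* (0.980). In all, 36 genes (0.299%) had an r of at least 0.95. *Bst2*, which encodes the antiviral membrane protein tetherin, had 12.2, 27.2 and 31.7 CPM with *Sephs1* siRNA, against 8.31, 8.11 and 9.28 CPM with control siRNA. *Lgals3bp*, a secreted glycoprotein that binds galectins, had 137, 192 and 249 CPM with *Sephs1* siRNA, against 108, 98.9 and 93.9 CPM with control siRNA. These genes were picked for their likeness, so their order by group is no result of its own. Likeness in course did not mean likeness in size, since *Enkd1* had a log2 fold change of 0.14 ± 0.10 (SE) and *Bst2* one of 1.47 ± 0.33 (SE).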

How the data were processed

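RNA of cultured mouse articular chondrocytes was sequenced from TruSeq Stranded mRNA libraries. The authors aligned reads to mm10 with HISAT2 2.1.0 and quantified them with StringTie 1.3.4d. The table deposited by the authors holds raw read counts per gene and FPKM, which correct for transcript length and depth. The 10 genes, the gene lists and the tests were chosen with earlier results of these data known.

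Following the study's methods, a gene had to have a read in every library, and 14223 of 24532 genes did. Counts were fitted with edgeR 4.0.16 in R 4.3.3 (TMM, quasi-likelihood test, Benjamini-Hochberg adjustment over all genes fitted). Standard errors are the log2 fold change over the square root of F. DESeq2 1.42.0, limma 3.58.1 on FPKM in log2 with 1 or 0.1 added, other scalings and filters, the replicate number as a block and each library left out were alternatives. The code was tested on simulated counts.

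The departures of same-numbered libraries from their group's mean were correlated at 0.47, 0.235 and 0.451 across genes, each over 0.1. The numbers, taken from the labels, were thus treated as pairs in the blocked fit, and blocked values stand beside some of the results they change. The log2 fold changes and errors printed for each of the 10 genes are from the fit without the block. With the block, *H2-D1* had 1.12 ± 0.20 (SE), *Tap2* 0.755 ± 0.153 (SE) and *Psmb8* 1.66 ± 0.28 (SE). No 2 libraries of a group agreed within sampling noise. Named genes were *Sephs1*, the 10 genes, up to 3 genes per list and direction with the smallest unadjusted p under 0.05 and at least 1 CPM, all tested heavy chains and constitutive catalytic subunits, and the 10 genes most alike in course. Others named in the text illustrate a role in a list and were chosen after the values were seen. Coordinates, promoter windows and biotypes are from RefSeq, and transcript sequences for shared 50-base stretches from GENCODE, both on GRCm38. Some genes of the lists are counted in them but are not reported here by name.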

Additional observations from a re-analysis of the deposited data

How the results depend on the processing

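The median log2 fold change of the genes fitted stayed positive under all 18 alternatives, from 0.58 with the replicate block and without pair 3 to 1.02 without *Sephs1* siRNA replicate 1. Of 147 values of the genes other than *Psmb10*, 147 were above 0, and 1 of 18 values of *Psmb10* was. On log2(FPKM + 1), *Psmb8* had 0.70 and *Nlrc5* 0.21, a scale that understates low genes, and the median of all genes moved by at most 0.07 under any scaling. The number of genes at an adjusted p under 0.05 was 2 over all genes, 0 with library totals only, 0 on log2(FPKM + 1) and 0 on log2(FPKM + 0.1), 211 with DESeq2, and 0 to 3 without 1 library. With the replicate block it was 234, and with the block it was 16 without pair 1, 81 without pair 2, 1187 without pair 3 and 73 with no filter on low counts, the last 4 fits being chosen after seeing the data. At an unadjusted p under 0.05 it was 1226, 733 to 1606 without 1 library, 3462 with the replicate block, and with the block 2084 without pair 1, 2229 without pair 2, 3661 without pair 3 and 3398 with no filter. The 20 other class I pathway genes were 13 to 23 without 1 library, and 25 with the replicate block. DESeq2, also fitted without the block, called 7 of the other class I pathway genes higher and *Hspa5* lower at an adjusted p. The edgeR fit of all 6 libraries without the block called no named gene of the lists at an adjusted p, so none had such a call to lose. Of the values of these named genes under the alternatives, 5 changed sign without a call, in *H2-Q7*, *H2-Q8* and *H2-T22*. The cause of these differences was not tested. *Psmb9* had 0 to 65 reads in a library and *Psmb8* 16 to 210.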
